A study of Homo sapiens with 6 samples.

Results

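The genes described here carry out antigen presentation by class I molecules of the major histocompatibility complex (MHC). They are the heavy chain genes HLA-B, HLA-C, HLA-E and HLA-F, the light chain gene B2M, the peptide transporter genes TAP1 and TAP2, the tapasin gene TAPBP, and NLRC5, which encodes the transcriptional activator of the class. They were picked by gene symbol and make up 9 of the 58735 genes in the count table, and all 9 had enough reads to be tested. SW1990, a widely used human line of pancreatic ductal adenocarcinoma, was cultured with 5 µM EPZ-5676 or as a control, and polyadenylated RNA of 3 libraries per group was sequenced. EPZ-5676 is a small-molecule inhibitor of DOT1L, the histone methyltransferase that marks histone H3 along transcribed genes, and the series asked which genes differ in expression when it is given. The sample characteristics call the controls untreated, whereas the treatment protocol gives them the same volume of the solvent DMSO. All libraries come from the same line, and the sources used here do not give the time of treatment. The labels do not say whether the replicates are separate cultures. The p-values therefore reflect only how far these samples differ from each other, and that spread may be technical. In bulk RNA, fewer cells that express a gene and less of its RNA per cell cannot be told apart.

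A class I molecule is a heavy chain bound to β2-microglobulin, the product of B2M, and to a short peptide cut from a protein made inside the cell. The proteasome cuts the peptides, the TAP1-TAP2 transporter carries them into the endoplasmic reticulum, and tapasin, with calreticulin and ERp57, holds the empty heavy chain at the transporter until a peptide fits. T cells read HLA-B and HLA-C with their peptides, and heavy chains that get no light chain or peptide mostly stay inside the cell and are degraded. The genes are induced by interferons through interferon-stimulated response elements, by NF-κB, and by NLRC5, which acts at conserved boxes in the promoters together with RFX, CREB/ATF and NF-Y proteins. Tumours that escape T cells often express less of these genes.

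The libraries held 33970420, 34980138 and 39749648 reads assigned to genes in EPZ-5676-treated cells and 38132352, 35042563 and 35568711 in control cells. The 7 epithelial and ductal markers summed to 6549 to 8341 CPM (counts scaled to library size) in treated and 5365 to 6168 CPM in control libraries. Nearly all of it came from the keratin genes KRT7, KRT8 and KRT18; KRT8 ran from 3095 to 3974 CPM in treated cells and from 2418 to 2832 CPM in control cells. MUC1 was also present, at 29.3 to 40.8 CPM in treated and 22.7 to 39.7 CPM in control libraries. The other 3 markers were at or near 0: CDH1 had no read in any library, KRT19 did not exceed 0.744 CPM in any, and EPCAM did not exceed 2.59 CPM. The 13 leukocyte markers summed to 7.50 to 10.4 CPM in treated and 5.55 to 14.5 CPM in control libraries. Control replicate 2 stood apart among them, with 4.38 CPM of the leukocyte gene PTPRC, against at most 0.228 CPM in any other library, and it also had 4.69 CPM of the class II gene CD74, chosen after its values were seen, against at most 0.253 CPM in any other. DOT1L mRNA had 102, 79.7 and 99.1 CPM in treated cells, against 69.4, 101 and 94.0 CPM in control cells. On the log2 scale this is a change of 0.09 (adjusted p = 0.636); with the correction for GC content and length it was -0.30 and passed (adjusted p = 0.0375). An inhibitor of the enzyme need not alter its mRNA, and these values therefore leave the labels unchecked.

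The promoter stretches of B2M, HLA-B and HLA-C are shown because B2M and these heavy chain genes passed in different fits. Without a correction for GC content and transcript length B2M fell and the heavy chain genes did not pass. With it HLA-B, HLA-C and HLA-F fell, B2M did not pass (adjusted p = 0.0531), and HLA-E passed in neither fit. The directions were not opposite with it: the log2 fold change was -0.28 for B2M and -0.27 for HLA-C. Each stretch runs from 200 to 41 bases before the transcription start, 5′ to 3′ on the gene's strand. The stretches come from the RefSeq promoter table for GRCh38.p14, which held windows for 7 of the 9 genes. The B2M stretch is chr15:44711317-44711476 on the plus strand. Those of HLA-B, chr6:31357220-31357379, and HLA-C, chr6:31272133-31272292, are on the minus strand. Capitals mark matches, on either strand, to 4 motifs. The ISRE-like motif, after the interferon-stimulated response element, is GAAA, any 2 bases, then GAAA. The κB-like motif is GGGA, any 4 bases, then CC. TGACG is like a cyclic-AMP response element, the core of the X box, and CCAAT is the core of the Y box.
B2M: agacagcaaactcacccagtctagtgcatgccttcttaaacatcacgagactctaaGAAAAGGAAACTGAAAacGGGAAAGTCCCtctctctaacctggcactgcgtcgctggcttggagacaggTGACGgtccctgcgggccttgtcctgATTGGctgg
HLA-B: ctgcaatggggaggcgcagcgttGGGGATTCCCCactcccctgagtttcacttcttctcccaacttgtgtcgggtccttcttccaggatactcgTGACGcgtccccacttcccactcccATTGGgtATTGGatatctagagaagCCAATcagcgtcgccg
HLA-C: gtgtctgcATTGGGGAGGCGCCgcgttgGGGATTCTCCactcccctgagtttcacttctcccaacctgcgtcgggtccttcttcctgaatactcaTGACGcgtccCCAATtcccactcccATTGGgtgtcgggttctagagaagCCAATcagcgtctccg

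In B2M, 2 matches to the ISRE-like motif overlapped each other, beginning 144 and 138 bases before the start. They were followed by matches to the κB-like motif on both strands from 126 and 125 bases, by TGACG at 75 and by CCAAT on the other strand at 49 bases before the start. In HLA-B the κB-like letters, again on both strands and overlapping, began 177 and 176 bases before the start, TGACG lay at 106, and CCAAT occurred at 81, 74 and 56. HLA-C had κB-like letters at 188, overlapping CCAAT on the other strand at 192, and again at 172, with TGACG at 105 and CCAAT at 95, 80 and 56. No match to the ISRE-like motif occurred in the windows of HLA-B and HLA-C, which says only that these letters are not in them. Of the windows of the other members, those of HLA-F, TAP2 and TAPBP and 1 of the 2 of TAP1 held the ISRE-like motif. HLA-F had the same calls as HLA-B and HLA-C, so the stretches shown do not stand for all genes with those calls. Whether any motif bears on the calls was not tested. Over all 35116 promoter windows of the table, 3.02% held the ISRE-like motif within 250 bases before the start, 22.6% held the κB-like motif, 21.2% held TGACG and 32.0% held CCAAT.

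The light chain gene B2M (ENSG00000166710, chromosome 15, 44711487 to 44718877, GRCh38) was the member that passed the test, in the fit without a correction for GC content. Its level was 1710, 1556 and 1657 CPM in EPZ-5676-treated cells, against 3170, 2778 and 2443 CPM in control cells. Every treated library lay below every control, and the treated libraries also lay closer together than the controls did. The means were 1641 ± 78.1 CPM in treated and 2797 ± 364 CPM in control cells (SD, n = 3 each). This is a log2 fold change of -0.77 ± 0.11 (SE), with a 95% interval from -0.99 to -0.55, or a level lower by 41.3% (adjusted p = 8.55e-05, quasi-likelihood test of edgeR, Benjamini-Hochberg adjustment over 15496 genes). Once smooth trends with GC content and transcript length were removed from each library, a step called the correction here, B2M was at -0.28 and did not pass (adjusted p = 0.0531), while HLA-B, HLA-C, HLA-F and NLRC5 were called lower. From here on, adjusted p-values come from that test, its threshold is 0.05, and a gene is said to have risen or fallen only when it passed.

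The place of B2M in the transcriptome moved with it. It took 0.156%, 0.156% and 0.165% of all reads in treated libraries, against 0.331%, 0.277% and 0.256% in controls. Ranked by reads among all genes, it stood at places 80, 77 and 73 in treated and at 26, 32 and 33 in control libraries. The 9 members together took 0.450%, 0.440% and 0.433% of reads in treated libraries and 0.617%, 0.568% and 0.536% in controls. That sum includes B2M, and the groups of every other member overlapped in CPM. Without control replicate 2, the library with reads of leukocyte genes, the log2 fold change of B2M was -0.76 (adjusted p = 4.31e-05). Leaving out any other library gave -0.86 to -0.66, each past the threshold.

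**Figure D1:**
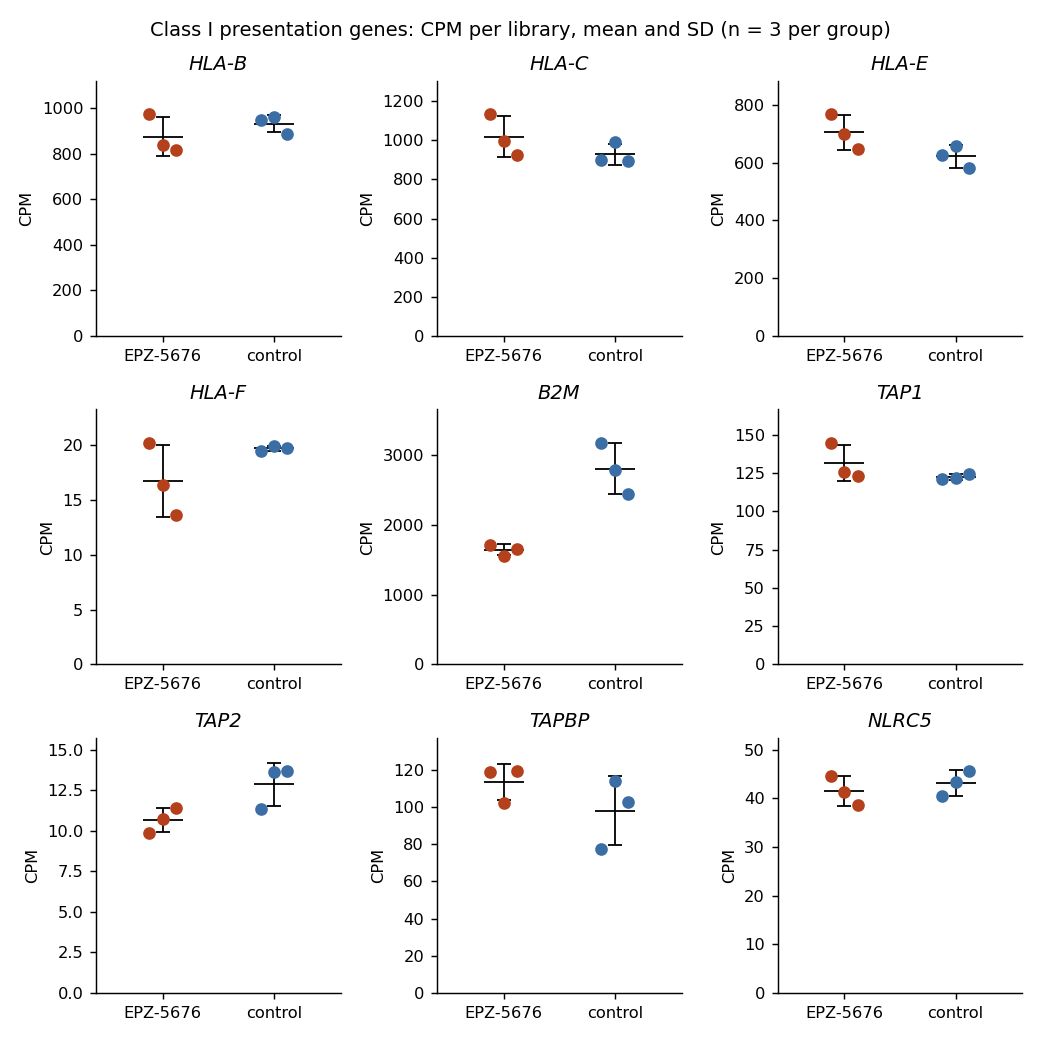
Level of each of the 9 genes in each library, in CPM on an axis that starts at 0, 1 panel per gene, with EPZ-5676-treated libraries left of control libraries; points are libraries and bars are the mean ± SD of 3. B2M is the gene whose treated libraries, at 1556 to 1710 CPM, all lie below its controls, at 2443 to 3170 CPM; the points of the 2 groups overlap for each of the other 8 genes.

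Of the 9 genes, 0 rose, 1 fell and 8 did not pass the test, where 33.7% of all tested genes passed, 15.0% upward and 18.7% downward. The median log2 fold change was -0.06 over the 9 genes and -0.05 over all 15496 tested genes. B2M was also the gene of the 9 whose groups did not overlap, where the groups of 46.0% of tested genes did not: 24.2% of tested genes had every treated library below every control and 21.8% had every treated library above. The count of members that fell is near that background, and the count whose groups did not overlap is below it.

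HLA-B and HLA-C encode the classical heavy chains, which show peptides to T cells. HLA-B (ENSG00000234745, chromosome 6, 31269491 to 31357188) had 973, 837 and 814 CPM in treated cells, against 947, 959 and 888 CPM in control cells. Treated replicate 1 was the highest of all 6 libraries and the other treated libraries were the lowest, so the groups overlapped. The log2 fold change was -0.09 ± 0.10 (adjusted p = 0.526; 95% interval -0.29 to 0.11).

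HLA-C (ENSG00000204525, chromosome 6, 31268749 to 31272130) had 1132, 995 and 926 CPM in treated cells, against 900, 990 and 894 CPM in control cells. Control replicate 2 lay among the treated libraries, and the other controls lay below them. The log2 fold change was 0.13 ± 0.10 (adjusted p = 0.345; 95% interval -0.07 to 0.34). The annotated spans of HLA-B and HLA-C overlap by 2640 bases on the same strand, of which 35 bases are exonic in both. HLA genes also differ between people from the reference and have near-identical copies in the genome, so the authors' counting could split or lose reads of the heavy chain genes, and their levels are uncertain to that extent.

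HLA-E and HLA-F are non-classical heavy chain genes. HLA-E shows peptides from the leader sequences of other class I chains to receptors of natural killer cells. HLA-E (ENSG00000204592, chromosome 6, 30489467 to 30494205) had 767, 698 and 647 CPM in treated cells, against 627, 657 and 580 CPM in control cells. Treated replicate 3 lay below control replicate 2, and the log2 fold change was 0.18 ± 0.10 (adjusted p = 0.180; 95% interval -0.02 to 0.38).

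HLA-F (ENSG00000204642, chromosome 6, 29722775 to 29738528) was far lower, with 20.2, 16.4 and 13.6 CPM in treated cells, against 19.5, 19.9 and 19.8 CPM in control cells. The controls were nearly equal and the treated libraries spread on both sides of them, so the log2 fold change of -0.24 ± 0.16 did not pass (adjusted p = 0.266; 95% interval -0.55 to 0.08). The antisense gene HLA-F-AS1 shares 535 exonic bases with it but had only 28 to 82 reads per library; the sources used here do not give the strand setting of the counting.

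TAP1 and TAP2 encode the subunits of the peptide transporter. TAP1 (ENSG00000168394, chromosome 6, 32845209 to 32853978) had 145, 126 and 123 CPM in treated cells, against 121, 122 and 125 CPM in control cells, with a log2 fold change of 0.10 ± 0.10 (adjusted p = 0.464; 95% interval -0.09 to 0.30). Treated replicate 1 was the high library, and the others lay at the level of the controls. TAP2 (ENSG00000204267, chromosome 6, 32821833 to 32838780) had 9.88, 10.7 and 11.4 CPM in treated cells, against 11.3, 13.6 and 13.7 CPM in control cells. Treated replicate 3 and control replicate 1 met at nearly the same level, and the log2 fold change was -0.27 ± 0.17 (adjusted p = 0.233; 95% interval -0.60 to 0.06). A read-through gene on the same strand shares 32.3% of the exonic bases of TAP2 and was listed with 0 reads in every library, so reads from those bases may have been left uncounted and the level of TAP2 is uncertain.

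TAPBP encodes tapasin, the bridge between the transporter and the empty heavy chain. TAPBP (ENSG00000231925, chromosome 6, 33299694 to 33314387) had 119, 102 and 119 CPM in treated cells, against 77.5, 114 and 103 CPM in control cells. Control replicate 1 was well below the rest, and the other controls lay among the treated libraries. The log2 fold change was 0.21 ± 0.12 (adjusted p = 0.193; 95% interval -0.03 to 0.45). Without control replicate 2 it was 0.35 and passed (adjusted p = 0.0255), and without control replicate 1 it was 0.08 (adjusted p = 0.645).

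NLRC5 (ENSG00000140853, chromosome 16, 56989485 to 57083531) had 44.6, 41.3 and 38.5 CPM in treated cells, against 40.4, 43.4 and 45.6 CPM in control cells. Both groups covered nearly the same range, and the log2 fold change was -0.06 ± 0.12 (adjusted p = 0.744; 95% interval -0.29 to 0.17). Without the correction, the intervals of this activator, TAP1 and HLA-B reach no further than 0.30 on either side of 0. Those of TAP2 and HLA-F extend to -0.60 and -0.55. With the correction NLRC5 was at -0.34 and HLA-B at -0.40, both beyond 0.30 and past the threshold.

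**Figure D2:**
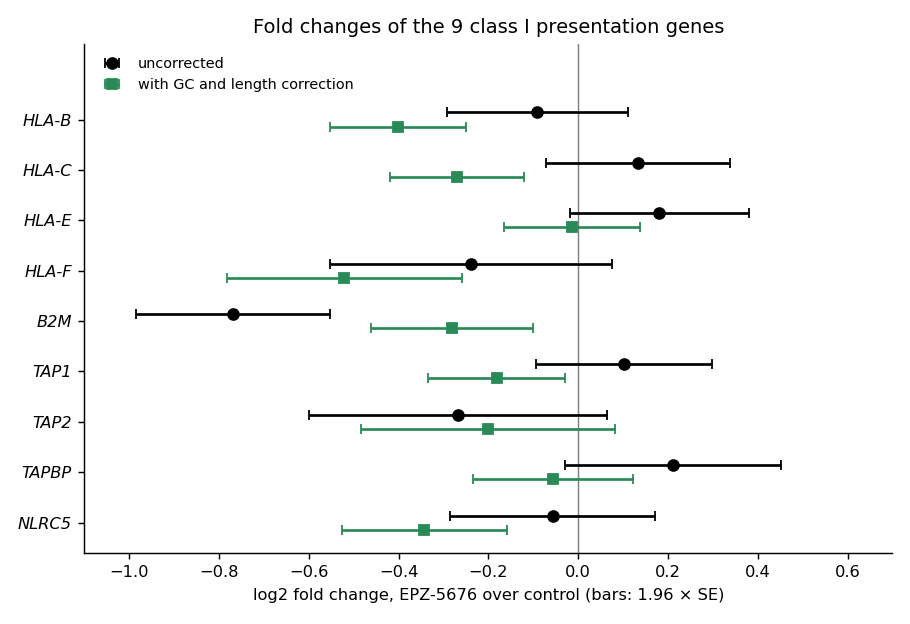
Log2 fold change, EPZ-5676 over control, of each of the 9 genes (points) with its 95% interval (bars), as tested and after smooth trends with GC content and transcript length were removed from each library. B2M is at -0.77 as tested and -0.28 after that step; HLA-B, HLA-C, HLA-F and NLRC5 pass the threshold only after it, at -0.40, -0.27, -0.52 and -0.34.

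Levels can be compared between genes only per length. Per kilobase of each gene's longest transcript, B2M had 683 ± 32.5 CPM in treated and 1164 ± 151 CPM in control cells (SD, n = 3 each). HLA-B had 565 ± 55.3 CPM per kilobase in treated and 602 ± 24.7 in control cells, and HLA-C had 542 ± 55.8 in treated and 494 ± 28.4 in control cells. HLA-E followed with 271 ± 23.1 CPM per kilobase in treated and 239 ± 15.0 in control cells. On this scale the mean of B2M lay above those of the heavy chains by more than their SDs in both groups. The spreads of HLA-B and HLA-C overlapped in treated cells and did not in control cells.

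The remaining genes were expressed at lower levels per kilobase. TAP1 had 44.4 ± 3.97 CPM per kilobase in treated and 41.4 ± 0.679 in control cells, and TAPBP had 30.2 ± 2.57 in treated and 26.1 ± 4.97 in control cells. HLA-F, at 10.2 ± 2.03 in treated and 12.1 ± 0.136 in control cells, and NLRC5, at 6.08 ± 0.444 in treated and 6.32 ± 0.377 in control cells, came next. TAP2 was lowest, with 1.88 ± 0.132 CPM per kilobase in treated and 2.26 ± 0.235 in control cells. The order at the top depends on the length used. Per kilobase of all annotated exons of a gene, the authors' gene length, HLA-C (406), HLA-B (287) and B2M (270) led in treated cells, and B2M (460), HLA-C (370) and HLA-B (305) in control cells.

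Since a class I molecule needs both chains, reads of B2M were set against the summed reads of HLA-B, HLA-C, HLA-E and HLA-F in the same library. The ratio was 0.591, 0.611 and 0.690 in treated libraries, against 1.27, 1.06 and 1.03 in control libraries. Every treated library lay below every control. The means were 0.631 ± 0.0524 in treated and 1.12 ± 0.133 in control cells, 0.564-fold, and leaving out each library in turn gave 0.537-fold to 0.605-fold. With 3 libraries against 3, an exact two-sided permutation test cannot go below p = 0.1, and it gave p = 0.1 here (0.125 after adjustment over 5 ratios). The ratios were chosen after values had been seen. They do not depend on the scaling of libraries, but they carry no correction for GC content, and B2M lies at lower GC content than the heavy chain genes. With the correction the log2 fold change was -0.28 for B2M, against -0.40 for HLA-B, -0.27 for HLA-C, -0.01 for HLA-E and -0.52 for HLA-F, so B2M lay within the range of the heavy chain genes.

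Reads of the heavy chain genes were also set against each other. The ratio of HLA-B to HLA-C reads was 0.859, 0.841 and 0.879 in treated libraries, against 1.05, 0.969 and 0.993 in control libraries. The ratio of HLA-E to HLA-B reads was 0.789, 0.835 and 0.795 in treated libraries, against 0.662, 0.685 and 0.653 in control libraries. In both the groups did not overlap, but each exact permutation p was 0.1 (0.125 adjusted), the smallest the design allows, so neither ratio passed. Among single genes, the groups of 46.0% did not overlap.

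Within the loading machinery, TAP1 reads per TAP2 read were 14.7, 11.7 and 10.8 in treated and 10.7, 8.94 and 9.12 in control libraries, again at the smallest exact permutation p of 0.1 (0.125 adjusted). The groups were adjacent rather than well apart. This ratio carries no correction for GC content either, and TAP1 (57.5% GC) lies above TAP2 (49.1% GC). With the correction the log2 fold change was -0.18 for TAP1 and -0.20 for TAP2. TAPBP reads per TAP1 read averaged 0.868 ± 0.0868 in treated and 0.801 ± 0.150 in control cells and overlapped (exact permutation p = 0.6).

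**Figure D3:**
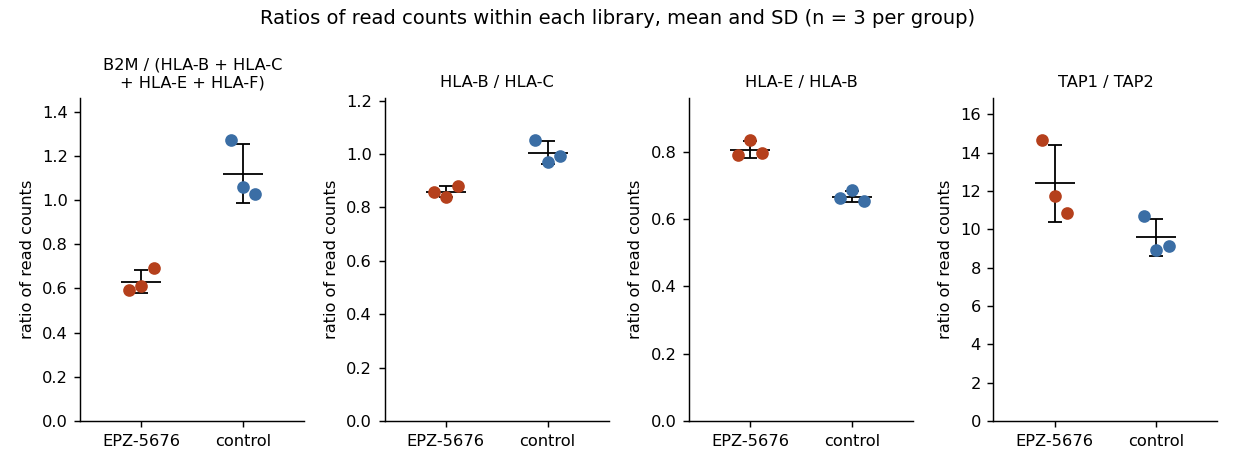
Ratios of reads between members in each library (points), EPZ-5676-treated left of control, with bars at the mean ± SD of 3 libraries and 1 panel per ratio. B2M reads per heavy chain read are 0.591 to 0.690 in treated and 1.03 to 1.27 in control libraries, and the groups nearly meet for TAP1 reads per TAP2 read, at 10.8 in treated and 10.7 in control.

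The members did not follow each other closely across libraries. Over the 6 libraries, which share the contrast and scaling, log2 CPM of HLA-C and HLA-E had a Pearson r of 0.94 and HLA-B and HLA-F one of 0.89, whereas B2M and HLA-E had r = -0.59 and B2M and TAPBP r = -0.63. These are given as descriptions. The mean standardised profile of the 9 genes was highest in treated replicate 1 (0.74) and control replicate 2 (0.45) and lowest in treated replicate 3 (-0.66). Of 10685 other coding genes, each at a mean log2 CPM of 1 or more, those most like this profile were SNRPC (r = 0.984), MOK (0.983), HEBP1 (0.977), YARS (0.971) and UBE2E2 (0.960).

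Fold changes in this experiment moved with the GC content of transcripts, and B2M and its partners lie at different GC contents. The longest B2M transcript has 40.6% GC, against 59.0% for HLA-B, 62.7% for HLA-C, 54.8% for HLA-E, 57.7% for HLA-F, 57.5% for TAP1, 57.6% for TAPBP, 58.0% for NLRC5 and 49.1% for TAP2. In the decile of tested genes that holds B2M, 713 of 1549 genes (46.0%) fell, 12 rose, and the median log2 fold change was -0.52. In the decile of HLA-F, TAP1, TAPBP and NLRC5, 418 of 1548 genes (27.0%) rose and the median was 0.26. Relative to the median of its own decile, B2M was lower by 0.25 on the log2 scale, less than HLA-F (0.50), HLA-B (0.44), NLRC5 (0.32) and HLA-C (0.29). HLA-E, at 0.02 above its decile's median, and TAPBP, at 0.05 below, stood at the level of transcripts of like GC content.

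After smooth trends with GC content and length were removed from each library, the median over all genes was 0.00 on the log2 scale, and 11.0% of tested genes passed, 5.4% upward and 5.58% downward. B2M then had a log2 fold change of -0.28 ± 0.09 and did not pass (adjusted p = 0.0531). It passed in 2 of 8 fits with this correction: without treated replicate 1 (-0.38, adjusted p = 0.0185) and without control replicate 3 (-0.36, adjusted p = 0.0195). In the other corrected fits its adjusted p was at most 0.249.

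With the correction, 4 of the 9 genes fell, none of which had passed before. HLA-B had a log2 fold change of -0.40 ± 0.08 (adjusted p = 0.00164) and passed in each of the 8 corrected fits. HLA-F changed by -0.52 ± 0.13 (adjusted p = 0.0137), NLRC5 by -0.34 ± 0.09 (adjusted p = 0.0209) and HLA-C by -0.27 ± 0.08 (adjusted p = 0.0241). HLA-F kept its call in 6 of the 8 corrected fits, and NLRC5 and HLA-C in 5. The direction of HLA-C turned, since it was 0.13 without the correction. HLA-E (-0.01, adjusted p = 0.937), TAP1 (-0.18, adjusted p = 0.148), TAP2 (-0.20, adjusted p = 0.426) and TAPBP (-0.06, adjusted p = 0.769) did not pass with it. A correction of this kind also removes any effect of the compound that follows GC content or length, and the part of GC content in these results was not tested.

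**Figure D4:**
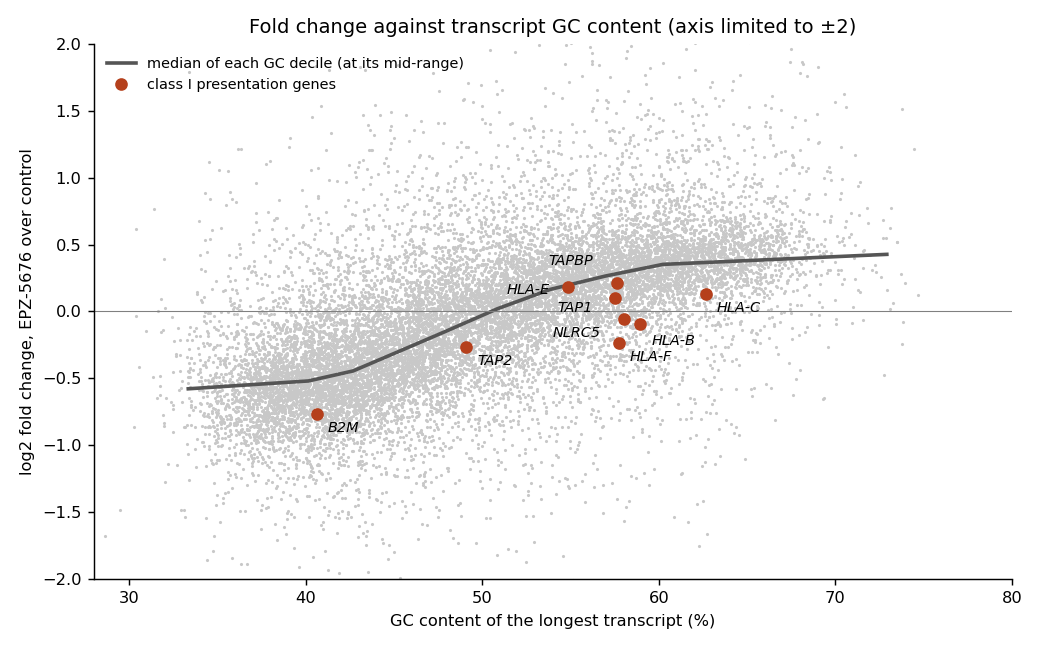
Log2 fold change, EPZ-5676 over control, against the GC content of the longest transcript in percent; small points are all tested genes, the line joins the medians of GC deciles, the 9 members are labelled and the vertical axis stops at ±2. B2M, at 40.6% GC and -0.77, lies below a decile median of -0.52, and HLA-B, at 59.0% GC and -0.09, lies below a decile median of 0.35.

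The steps of the pathway before the transporter were read from gene lists of the pathway. Of the 5 immunoproteasome genes, which interferon induces for cutting class I peptides, 0 rose and 0 fell. Of all tested genes, 15.0% rose and 18.7% fell. PSMB8 had 126, 115 and 106 CPM in treated and 112, 113 and 103 CPM in control cells (log2 fold change 0.09 ± 0.10, adjusted p = 0.547). PSMB9, the neighbour of TAP1 on the opposite strand, had 0.15 ± 0.13 (adjusted p = 0.383); it was chosen after its values were seen. Of the 5 constitutive counterparts, the catalytic subunit genes PSMB5 (0.39 ± 0.11, adjusted p = 0.00779) and PSMB6 (0.27 ± 0.10, adjusted p = 0.0483) rose, and the activator gene PSME4 fell (-0.73 ± 0.17, adjusted p = 0.0028). With the correction PSMB5 (0.34, adjusted p = 0.00855) was the gene of the 5 that passed, and PSMB6 (0.12, adjusted p = 0.359) and PSME4 (-0.26, adjusted p = 0.188) did not.

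Of 8 peptide trimming genes, 1 rose and 5 fell, where 15.0% of all tested genes rose and 18.7% fell. The median log2 fold change of the 8 was -0.54. The peptidase genes NRDC (-0.64 ± 0.14, adjusted p = 0.00219) and LAP3 (-0.53 ± 0.13, adjusted p = 0.00323) fell, and both still did with the correction (-0.37 and -0.48). LAP3 passed in each of the 8 corrected fits, but NRDC in only 3 of the 8. NPEPPS, the puromycin-sensitive aminopeptidase, fell by 0.39 on the log2 scale (adjusted p = 0.0116) but was at 0.18 with the correction. THOP1, which destroys peptides in the cytosol, rose (0.29 ± 0.11, adjusted p = 0.0403) and was at -0.12 with it. ERAP1, the aminopeptidase that trims peptides inside the endoplasmic reticulum and was named after its values were seen, had 7.21, 8.38 and 7.36 CPM in treated and 12.3, 8.10 and 13.6 CPM in control cells (-0.57 ± 0.20, adjusted p = 0.0335; -0.04 and 0.911 with the correction). The list's median was -0.08 with the correction, and its transcripts have a median GC content of 40.1%. In the decile of that value 46.0% of tested genes fell.

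Of 6 genes of the loading chaperones, 0 rose and 3 fell, where 15.0% of all tested genes rose and 18.7% fell. CANX, calnexin, which holds new heavy chains before the light chain binds, had 269, 307 and 306 CPM in treated and 597, 445 and 523 CPM in control cells, and fell by 0.83 on the log2 scale (adjusted p = 5.49e-05). It was lower with the correction too (-0.37 ± 0.07, adjusted p = 0.002), and PDIA3, which encodes ERp57, was not past the threshold with it (-0.12, adjusted p = 0.390) after falling by 0.47 without it (adjusted p = 0.00124). UGGT1, the glucosyltransferase that checks folding, fell by 0.42 (adjusted p = 0.0154) and was at -0.10 with the correction (adjusted p = 0.568). CALR, calreticulin, had 1300, 1214 and 1134 CPM in treated and 1240, 1340 and 1191 CPM in control cells (-0.05 ± 0.10, adjusted p = 0.752). Of 12 other genes of class I-like proteins tested, 0 rose and 1 fell: RAET1E, a ligand of an activating receptor of natural killer cells, by 0.60 on the log2 scale (adjusted p = 0.00492), and by 0.49 with the correction.

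Of 15 genes for factors of the class I promoters, 4 rose and 1 fell, with a median of -0.07. Their share called is that of all tested genes, of which 33.7% passed. RFXANK, a subunit of the RFX complex, rose (0.50 ± 0.11, adjusted p = 0.0024), with USF2 (0.47 ± 0.11, adjusted p = 0.00336) and USF1 (0.41 ± 0.11, adjusted p = 0.0068), factors that bind E boxes. ATF1, of the CREB/ATF family, fell by 0.57 (adjusted p = 0.00836). RFX5, another RFX subunit, chosen after its values were seen, had -0.29 ± 0.11 (adjusted p = 0.054). None of the 15 passed with the correction.

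Of 13 interferon signalling genes, 1 rose and 3 fell. The share of these genes that passed is near that of all tested genes, 33.7%. The kinase gene TYK2 rose (0.49 ± 0.11, adjusted p = 0.00284) and was at 0.13 with the correction (adjusted p = 0.364), and the kinase gene JAK1 fell by 0.58 (adjusted p = 0.00105) and by 0.35 with the correction (adjusted p = 0.0188). PTPN2, a phosphatase that dampens the signal, fell by 0.72 (adjusted p = 0.011) and was at -0.22 with the correction (adjusted p = 0.480). SOCS3, a feedback inhibitor, had -0.17 ± 0.10 (adjusted p = 0.200) and -0.52 with the correction (adjusted p = 0.000149).

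Of 40 listed genes that interferons induce, 29 had enough reads, and 4 of these rose and 4 fell, where 15.0% of all tested genes rose and 18.7% fell. Both counts lie below those shares. The membrane protein genes IFITM3 (0.40 ± 0.10, adjusted p = 0.00632) and IFITM2 (0.38 ± 0.12, adjusted p = 0.0201) and the ISG15-conjugating enzyme gene UBE2L6 (0.66 ± 0.17, adjusted p = 0.00645) rose. PARP14 fell by 0.82 (adjusted p = 0.0031), IFIT1 by 0.86 (adjusted p = 0.019) and IFIH1, an RNA sensor, by 1.66 (adjusted p = 0.0212). IFIH1 is scarce here, at 0.392 ± 0.128 CPM in treated and 1.25 ± 0.321 CPM in control cells. BST2, tetherin, which holds virus particles at the cell surface, at 444, 374 and 369 CPM in treated and 362, 384 and 330 CPM in control cells, was among those not past the threshold (0.14 ± 0.10, adjusted p = 0.315). With the correction none of these 8 calls was left, 0 rose and 1 other gene of the list fell, OAS3, chosen after its values were seen (-0.33, adjusted p = 0.0362). The median was -0.18 without and 0.00 with the correction.

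Of 11 genes that turn class I molecules over, 2 rose and 2 fell, a share near the 33.7% of all tested genes that passed. MARCH9, a ubiquitin ligase of the cell surface (0.63 ± 0.14, adjusted p = 0.00207), and TMEM129, a ligase of the endoplasmic reticulum (0.45 ± 0.11, adjusted p = 0.00416), rose. NBR1, an autophagy receptor that has been tied to class I degradation in pancreatic cancer cells, fell by 0.46 (adjusted p = 0.00558), and UBE2J1, a ubiquitin-conjugating enzyme, by 0.45 (adjusted p = 0.0116). None of the 11 passed with the correction.

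PRC2 is the histone methyltransferase complex that can silence class I genes in tumours. Of its 10 listed genes, 0 rose and 5 fell, where 18.7% of all tested genes fell. Their transcripts have a median GC content of 41.8%, and in the decile of that value 38.7% of tested genes fell. RBBP7 (-0.63 ± 0.11, adjusted p = 0.000419) and EZH2 (-0.74 ± 0.16, adjusted p = 0.00158) were among those that fell. None of the 10 passed with the correction. Of 7 tested genes of immune checkpoint ligands, CD47 fell by 0.50 (adjusted p = 0.00607) and was at 0.04 with the correction. Class II presentation genes were at or near 0. Their sum over 13 genes was 3.65 to 6.02 CPM in treated and 7.02 to 13.9 CPM in control libraries. The control sums include control replicate 2, the library with reads of leukocyte genes. In it HLA-DRA, chosen after its values were seen, had 0.343 CPM, against 0 CPM in every other library. Among the class II genes the protease gene CTSS fell by 1.23 (adjusted p = 0.00209). With the correction CTSS was at -0.73 and did not pass (adjusted p = 0.0948). Of 10 class I pseudogenes, 3 were tested and 0 passed.

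**Figure D5:**
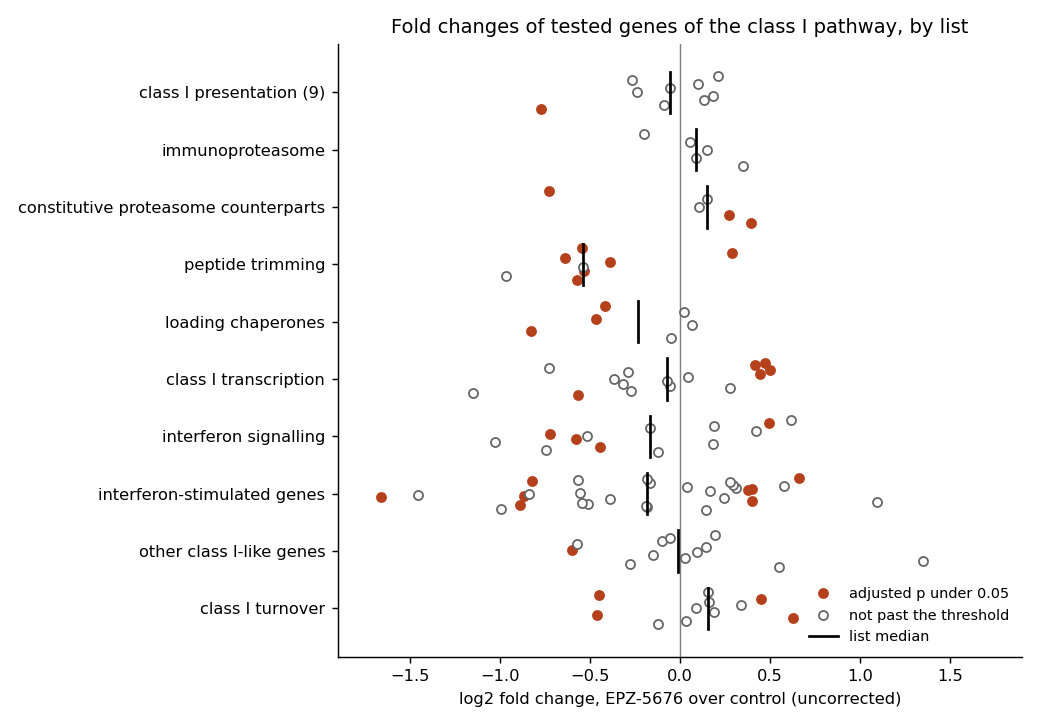
Log2 fold change, EPZ-5676 over control, of every tested gene of each list (points), 1 row per list, with a line at the median of the list; filled points passed the threshold, and the spread within a row is only for visibility. The 9 members have a median of -0.06 with 1 gene lower, and the 8 peptide trimming genes a median of -0.54 with 5 lower and 1 higher.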

How the data were processed

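Grouping followed the sample titles: 3 EPZ-5676-treated and 3 control SW1990 libraries of polyadenylated RNA, strand-marked with dUTP per the labels' protocols. Per the submitters' processing notes, HISAT2 2.2.1 was the aligner and GRCh38 (hg38) the build. How reads were counted, on which strand and with which annotation release, the sources used here do not say. The deposited table gives raw read counts, whole numbers per gene that the authors did not normalize. Coordinates of all 58735 genes equal those of GENCODE release 29, whose longest transcripts gave GC content and length.

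The counts went through edgeR 4.0.16 (R 4.3.3): filterByExpr with a minimum count of 10, TMM scaling, robust quasi-likelihood fits and Benjamini-Hochberg adjustment over 15496 genes. CPM used TMM-scaled library sizes, and 95% intervals assume normal errors. The fit was tested on simulated data. The correction fitted natural splines (5 degrees of freedom each) of GC content and log length to each library's deviation of log2 CPM (prior count 2) and entered them as offsets. Of 22 alternatives, 14 were without and 8 with this correction; they include DESeq2 1.42.0 and limma-voom (limma 3.58.1). No libraries of a group were alike within sampling noise (chi-square per degree of freedom 11.8 to 37.4). The members and gene lists were chosen with earlier results of these data known. Named from each list were up to 3 called genes per direction by smallest p and up to 2 of the most expressed others; genes outside this rule, cell type markers aside, are marked in the text. Some genes are not reported here. Depth of 33970420 to 39749648 reads per library leaves the least expressed genes least precise. Plots used Python 3.11.15 with matplotlib 3.10.9.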

Additional observations from a re-analysis of the deposited data

How the results depend on the processing

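The fall of B2M held in each of the 14 alternatives without the GC and length correction (log2 fold change -0.86 to -0.66), and in these no other member was called except TAPBP, without control replicate 2. With the correction, members called lower went to 4, and with each library left out, corrected or not, members called numbered 0 to 1 higher and 1 to 5 lower. Over all genes the correction gave 837 higher and 864 lower calls, and leaving out each library, corrected or not, gave 397 to 2780 higher and 512 to 3167 lower. Over the gene lists it left 1 higher and 7 lower of 18 and 29, with 0 to 24 and 4 to 31 across left-out libraries. For the list genes named, 531 of the values without the correction kept their direction and side of the threshold, 39 lost the call, 1 gained it and 2 turned sign. With the correction 61 kept both, 195 lost the call, 9 gained it and 63 turned sign. The cause of these differences was not tested; a left-out library also means fewer samples.

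Several log2 fold changes turned sign with the correction, and the ranges over left-out libraries, corrected or not, show it. HLA-C was -0.270 (range -0.299 to 0.198), HLA-E -0.0140 (-0.0560 to 0.239), TAP1 -0.182 (-0.226 to 0.145) and TAPBP -0.0557 (-0.150 to 0.351). Among list genes, PSMB8 was -0.0690 (-0.112 to 0.145), NPEPPS 0.175 (-0.456 to 0.193), THOP1 -0.125 (-0.211 to 0.371) and BST2 -0.109 (-0.159 to 0.208). UBE2J1 was 0.0597 (-0.516 to 0.114), CD47 0.0417 (-0.588 to 0.0752) and DOT1L -0.301 (-0.378 to 0.212). Signs turned in some fits with a library left out for ERAP1 (-0.747 to 0.0830), TPP2, chosen after its values were seen (-0.684 to 0.112), CALR (-0.228 to 0.0160), ATF1 (-0.603 to 0.0665) and TMEM129 (-0.0404 to 0.511).

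The labels do not say whether replicate numbers pair the samples. Deviations of same-numbered libraries from their group means had r of -0.111, -0.0927 and 0.0466. Those of differently numbered libraries had r of -0.0799 to 0.155. With 3 libraries per group these values cannot decide whether samples were paired. The replicate block gave 1677 higher and 2219 lower genes over all, and 0 higher and 1 lower among the members. The replicate block with the correction gave 689 higher and 685 lower genes, 4 members lower, and 1 higher and 6 lower list genes. In that fit HLA-C was -0.271, HLA-E -0.0141, TAP1 -0.181, TAPBP -0.05, PSMB8 -0.0691, NPEPPS 0.175, THOP1 -0.121, BST2 -0.108, UBE2J1 0.0581, CD47 0.0419 and DOT1L -0.300.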
